A study of Rattus norvegicus with 3 samples.

Results

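The nuclear-encoded genes of oxidative phosphorylation were followed in the P4 rat retina. They were taken from the deposited gene table by symbol: names beginning with Nduf for complex I, the 4 Sdh subunit genes for complex II, Uqcr for complex III, Cox4 to Cox8 for complex IV and Atp5 for complex V. This gave 87 of the 18425 genes, of which 43 belonged to complex I, 4 to complex II, 8 to complex III, 16 to complex IV and 16 to complex V. By role, 71 of the 87 were counted as subunits of wide expression (the low copy Cox7a2l2 included), 7 code for complex I assembly factors (Ndufaf1 to Ndufaf7), 6 for isoforms of restricted tissue expression (Cox4i2, Cox6b2, Cox7a1, Cox7b2, Cox8b and Ndufa4l2), and 3 for proteins that share the name but are not subunits (Cox7a2l, Atp5s and Atp5sl). Symbols are those of the table, so that Atp5b is the gene now named Atp5f1b and Atp5g1 is Atp5mc1.

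The samples were 3 retinal RNA libraries from wild-type Sprague Dawley rats, 1 library for each treatment. Pups were given 1 µl by intravitreal (IVIT) injection at P1, and retinas were dissected at P4. The Buffer library received citrate buffer of pH 4.5, the Saline library received saline, and the STZ library received 10 µg of streptozotocin, a glucosamine linked to a nitrosourea that alkylates DNA. All 3 groups were therefore injected and none was left untouched. By the study's methods STZ went into the right eye of a pup and buffer into its left eye, so the Buffer and STZ retinas may share animals, but the labels do not tie the libraries to animals. The number of animals behind each library was not stated, and with 1 library per group there was no replicate, so no p-value was computed and intervals cover counting error only.

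In the mitochondrial inner membrane, complexes I and II pass electrons to ubiquinone, complex III passes them on to cytochrome c, and complex IV hands them to oxygen, while complexes I, III and IV pump protons. Complex V, the ATP synthase, lets the protons flow back to make ATP. Most subunits are encoded in the nucleus and the rest by mitochondrial DNA, and the neural retina is known for a high demand for ATP that grows as photoreceptors mature.

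Promoter letters are given first, since these genes are known for upstream motifs that many of them hold in common. RefSeq promoters on GRCr8, 250 bases before to 50 after the annotated start, were matched by gene ID for 75 of the 87 genes. Among the 12 not matched were Atp5h, Atp5sl, Cox4i2, Cox6a1, Cox6c, Cox7a1, Ndufa8, Ndufaf6, Ndufb9, Uqcr11 and Uqcrb. Of the 3 strings searched on both strands, the NRF1 core GCGCANGCG was in 19 of 75 promoters (25.3%), the ETS string CCGGAAG in 20 (26.7%) and the YY1 string AAGATGGC in 15 (20%). In all 33469 promoters of the same length these strings were in 5.8%, 8.75% and 3.17%, and in the 11543 promoters of table genes with a mean of at least 10 reads in 12.4%, 16.5% and 5.1%. At least 1 string was in 44 of the 75 (58.7%), against 15.7% of all promoters and 29.3% of those of the table genes. No match says only that these letters were not in the window. The promoters below show a gene with all 3 strings (Ndufa6), the complex I gene with the largest STZ to Buffer ratio (Ndufaf5), the broadly expressed partner of an isoform that was lower in STZ (Cox4i1), and the 3 genes for the same ATP synthase subunit c, which did not move together. Each run is 5′ to 3′ on the gene's strand, from 200 bases before to 30 after the start, with matches in capitals.
Ndufa6: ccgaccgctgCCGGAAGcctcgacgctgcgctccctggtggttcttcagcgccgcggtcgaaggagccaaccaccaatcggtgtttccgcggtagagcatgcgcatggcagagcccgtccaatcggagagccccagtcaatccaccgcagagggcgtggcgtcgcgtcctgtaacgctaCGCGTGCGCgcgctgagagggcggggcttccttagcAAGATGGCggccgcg
Ndufaf5: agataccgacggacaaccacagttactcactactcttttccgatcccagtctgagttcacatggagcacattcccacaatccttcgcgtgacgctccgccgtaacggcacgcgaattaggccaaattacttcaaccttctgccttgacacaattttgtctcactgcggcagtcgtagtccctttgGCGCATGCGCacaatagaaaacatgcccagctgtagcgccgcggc
Cox4i1: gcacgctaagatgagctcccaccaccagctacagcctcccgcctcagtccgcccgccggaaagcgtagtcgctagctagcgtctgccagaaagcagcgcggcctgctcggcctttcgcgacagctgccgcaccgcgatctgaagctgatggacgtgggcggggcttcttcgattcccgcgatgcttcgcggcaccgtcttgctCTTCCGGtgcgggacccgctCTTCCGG
Atp5g1: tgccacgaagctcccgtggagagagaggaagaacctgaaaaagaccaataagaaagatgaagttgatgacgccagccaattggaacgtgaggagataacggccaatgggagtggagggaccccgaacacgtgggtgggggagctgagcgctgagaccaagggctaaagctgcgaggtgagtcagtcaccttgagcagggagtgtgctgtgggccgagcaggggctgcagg
Atp5g2: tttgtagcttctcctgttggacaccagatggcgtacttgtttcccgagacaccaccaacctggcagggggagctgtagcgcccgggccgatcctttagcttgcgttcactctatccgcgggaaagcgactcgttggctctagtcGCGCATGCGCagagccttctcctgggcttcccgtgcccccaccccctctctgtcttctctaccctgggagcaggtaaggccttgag
Atp5g3: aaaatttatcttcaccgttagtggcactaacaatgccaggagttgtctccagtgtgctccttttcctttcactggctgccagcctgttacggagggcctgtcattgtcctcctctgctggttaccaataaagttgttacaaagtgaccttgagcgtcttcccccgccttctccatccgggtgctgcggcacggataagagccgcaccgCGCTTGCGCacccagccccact
The printed run of Ndufa6 lies at chr7:115750288-115750517 (minus strand), where the ETS string occupied bases 11 to 17 of the printed run, the NRF1 core bases 180 to 188 and the YY1 string bases 216 to 223. That of Ndufaf5 lies at chr3:147961412-147961641 (plus strand) and that of Atp5g2 at chr7:135678189-135678418 (minus strand), and in both the NRF1 core read on both strands in overlapping copies, at bases 186 to 195 and 145 to 154. Atp5g3 lies at chr3:79220635-79220864 (minus strand) with 1 NRF1 core at bases 209 to 217, and Cox4i1 at chr19:65630183-65630412 (plus strand) with ETS strings at bases 204 to 210 and 224 to 230. Atp5g1 lies at chr10:81523316-81523545 (minus strand), and none of the strings was in its window. Among the matched genes with a mean of at least 10 reads, those with and without a string differed little in the median log2 STZ to Buffer ratio of library shares, 0.11 with (19 genes) and 0.13 without (53 genes) for NRF1, 0.11 (20 genes) and 0.14 (52 genes) for ETS, and 0.12 (15 genes) and 0.13 (57 genes) for YY1.

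Read totals were nearly equal (Buffer 21992749, Saline 21977876, STZ 22031287). Of the 16 retinal markers, among them Pax6 and Crx, none was at 0, and they summed to 3431, 3315 and 3329 CPM (read counts scaled to a common library total) in Buffer, Saline and STZ. The near-equal sums hid differences within the list. Of the 15 with a mean of at least 10 reads, 7 were higher and 8 lower in STZ than in Buffer by count ratio. These ran from 0.5975-fold in Lhx2 (2416, 2567 and 1446 reads) to 1.63-fold in Rcvrn (1087, 1184 and 1775). The sums of most other marker lists were uneven: microglial markers summed to 66.7, 83 and 187 CPM, lens markers to 11.3, 23.9 and 78.3, pigment, ciliary and iris epithelium markers to 435, 736 and 370, blood markers to 61.6, 86.8 and 45.5, and muscle markers to 10.1, 10.2 and 11.6. Of the 8 epithelial markers with a mean of at least 10 reads, Rlbp1, which Müller glia express too, held most of the reads in Buffer and STZ. It had 6996 reads in Buffer, 6571 in Saline and 5501 in STZ. Against Buffer, 3 of the 8 were higher in STZ and 5 lower by count ratio, of which Aldh1a1 had 1904 reads in both. All 12 microglial markers were higher in STZ than in both controls. Vascular markers are given beside the complex IV isoforms. The part of retinal cell types, microglia, lens or epithelium in the differences described here was not tested.

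Levels and differences are given on separate scales. FPKM, the read count scaled to transcript length and to library size, compares levels between genes, and its fold is (FPKM + 1)/(FPKM + 1). The count ratio of a gene is the ratio of its shares of the reads of 2 libraries, with an exact 95% Clopper-Pearson interval. Read counts were whole numbers in all 3 libraries for 79 members and fractional for 8, among them Ndufa1, Ndufa12, Uqcr10, Uqcrc2, Cox7a1, Cox7a2 and Cox7a2l2. How the fractions arose was not given in the sources used here, so values of these 8 are less certain, and they are given apart. Counts were rounded before ratios were computed.

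The question for the comparison of STZ with citrate buffer, its vehicle, was which genes differ at P4 after STZ. By summed reads, the 87 genes made up 0.711% of the Buffer library (0.707% to 0.714%), 0.711% of the Saline library (0.708% to 0.715%) and 0.768% of the STZ library (0.764% to 0.771%). The STZ share was thus above both controls, which overlapped, by 8% against Buffer and 7.89% against Saline, while Saline exceeded Buffer by 0.104%. In bulk RNA, fewer cells of a type and less RNA per cell cannot be told apart. Scaling by TMM factors left a ratio of summed counts of 1.05 against Buffer and 1.07 against Saline in place of 1.08 and 1.08. The 79 whole-count genes gave 1.08 in both comparisons and the 8 fractional genes 1.09 and 1.07.

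No member passed the study's fold thresholds, a lower one of 0.65 and an upper one of nearly the same size in the other direction, in STZ against Buffer, where 3.29% of all genes did. Among the 84 members with a mean of at least 10 reads, the folds ran from 0.667 for Cox4i2 to 1.36 for Ndufaf5. The members that passed in the other comparisons were 2, Cox8b and Cox7a2l2, each in both. All genes passed at 3.78% when STZ was set against Saline and at 1.43% between the controls. Both passed through 0 to 4.35 reads: Cox8b had 0 reads in Buffer, 3 in Saline and 0 in STZ, and Cox7a2l2 had 4.35, 0 and 3.37, levels from which no ratio was computed. By this fold, which carries a pseudocount of 1, the other members stayed inside both thresholds. With a pseudocount of 0.1 there were still 0 members past them in STZ against Buffer. The count ratio of Cox4i2 to Buffer, which is taken from reads and not from FPKM, was 0.648.

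The small differences pointed mostly one way. In STZ against Buffer 69 of the 84 members had a count ratio above 1, against 56.8% of all 14885 genes with such a mean, and in STZ against Saline 67 of 84, against 52.6%. In Saline against Buffer 42 of 84 were above 1, against 55.7% of all genes. The median log2 ratio of the members was 0.12 for STZ to Buffer, 0.13 for STZ to Saline and 0.00 between the controls. Over all genes the medians were 0.04, 0.02 and 0.02, and TMM scaling took them to values between -0.0049 and 0.0008 and the members to 0.08, 0.12 and -0.02. STZ lay above both controls in 62 of 84 members, where 44.9% of all genes did, and below both in 10, where 35.5% of all genes did. When only genes averaging 500 reads or more were taken, the middle 50% of the members lay between 0.04 and 0.17 in log2 STZ to Buffer ratio, and that of all genes between -0.10 and 0.12.

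**Figure D1:**
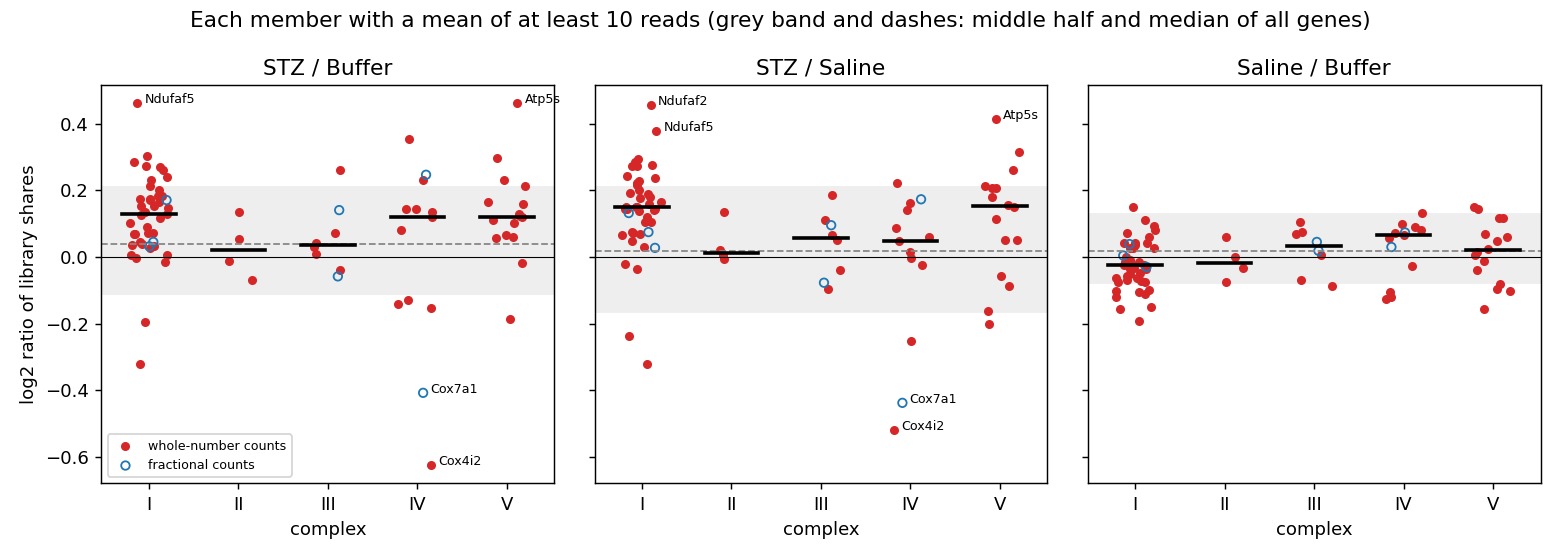
Log2 ratio of library shares (y axis) of each member with a mean of at least 10 reads, by complex (x axis), in the 3 comparisons. Filled red points are whole-count genes, open blue points fractional ones, black lines medians of a complex, the dashed line and grey band the median and middle 50% of all genes. Most members sit above the line of all genes in the left and middle panels, with Cox4i2 lowest at -0.62 and -0.52, and spread around 0 in the right panel.

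With counting error taken into account, 75 members had a mean of at least 500 reads. In 29 of them the interval of the STZ ratio lay above 1 against both controls, where 23.3% of all genes of that depth did, and in 3 it lay below 1 against both, where 21.2% of all genes did. The 29 were spread over all 5 complexes, 12 from complex I, 1 from II, 2 from III, 5 from IV and 9 from V. The 3 were Atp5g2, Cox4i2 and Cox7a2l. The controls themselves differed beyond counting error in 21 of the 75, where 35.8% of all genes did, so an interval that leaves out 1 is no measure of the spread between eyes or animals.

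By complex, the STZ library stood above both controls most clearly in complexes I and V. Complex V held the largest share, 0.275% of the reads in Buffer, 0.277% in Saline and 0.304% in STZ, and its summed counts were 10.6% higher in STZ than in Buffer and 9.97% higher than in Saline. Complex I held 0.23%, 0.225% and 0.249%, which was 8.2% and 10.3% higher. Complex III held 0.0585%, 0.0592% and 0.0624%, or 6.57% and 5.25% higher. Complex IV held 0.102%, 0.106% and 0.107%, and STZ was 4.32% above Buffer, but its 1.08% against Saline had an interval of the ratio from 0.993 to 1.03, and both TMM scaling (0.999) and the whole-count rows alone (0.999) took it just under 1. Complex II held 0.045%, 0.0444% and 0.0455%, and its 1.25% and 2.48% lay within counting error, with a ratio of 0.984 against Buffer under TMM scaling. Saline differed from Buffer beyond counting error in complex I, where it was lower (ratio 0.981, 0.969 to 0.993), and in complex IV, where it was higher (1.03, 1.01 to 1.05).

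**Figure D2:**
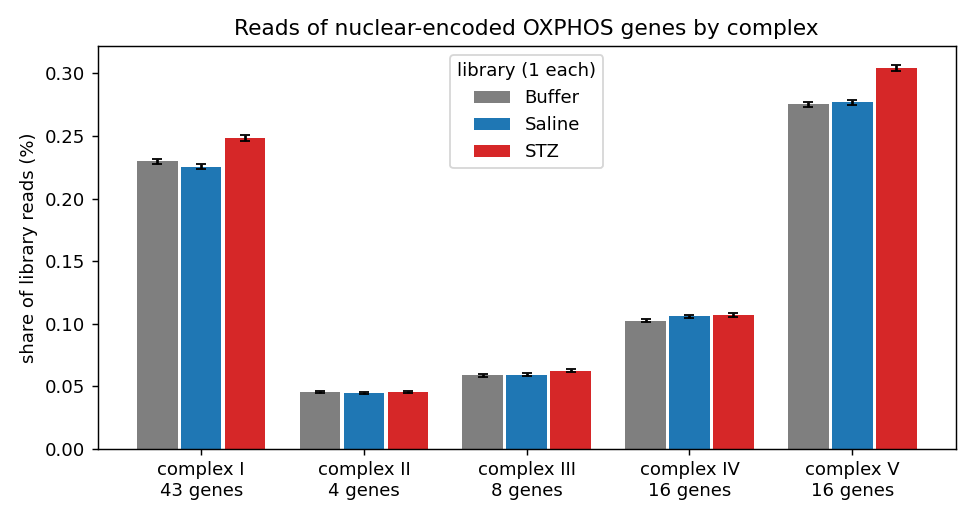
Share of all reads of a library (y axis, percent) held by the members of each complex (x axis, number of genes below) in the Buffer, Saline and STZ libraries, 1 each. Error bars are exact 95% Clopper-Pearson intervals for counting error. In complexes I and V the STZ bars, 0.249% and 0.304%, stand above both controls, and in complexes II and IV they do not stand clear of Saline.

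Medians over genes weigh each gene equally and gave the same order only in part. The median log2 ratio in STZ against Buffer was 0.13 in complex I, 0.02 in II, 0.04 in III, 0.12 in IV and 0.12 in V. Against Saline the medians were 0.15, 0.01, 0.06, 0.05 and 0.15. Complexes II and III fell to -0.02 and -0.0040 against Buffer under TMM scaling, so no direction is given for their medians. The ratio of summed counts of complex III stayed above 1 under TMM scaling, at 1.036 against Buffer and 1.04 against Saline. STZ lay above both controls in 37 of 43 genes in complex I, in 1 of 4 in II, in 4 of 8 in III, in 8 of the 13 with a mean of at least 10 reads in IV, and in 12 of 16 in V. Of all genes with such a mean, 44.9% lay above both controls, and 40% under TMM scaling. The counts of complexes II, III and IV, from only 4, 8 and 13 genes, did not stand clear of that share. In complex IV STZ lay below both controls in 5 of the 13.

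Complex I takes electrons from NADH. All 43 of its members were detected, and FPKM of its 35 subunits other than Ndufa4l2 ran from 43.7 to 323 over the 3 libraries. The highest was Ndufb8, an accessory membrane-arm subunit, with 274 FPKM in Buffer, 268 in Saline and 323 in STZ. Its reads were 2539, 2479 and 3007, so STZ was 1.18-fold Buffer (1.12 to 1.25) and 1.21-fold Saline (1.15 to 1.28). Ndufa4 and Ndufb10 followed in Buffer at 230 and 228 FPKM. The subunits with the highest ratios to Buffer were Ndufc1 (544, 560 and 664 reads, in the same order of libraries) and Ndufa3 (516, 512 and 625), both small accessory subunits, at 1.22-fold (1.09 to 1.37) and 1.21-fold (1.07 to 1.36). In both genes the controls differed little (Saline to Buffer 1.03 and 0.993) and STZ stood above them.

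The core subunits of complex I named here include the carriers of the flavin and the iron-sulfur clusters. They differed in level and in their STZ to Buffer ratio. Ndufv1, which binds NADH and flavin, had 2736, 2667 and 2806 reads (99.6, 97.2 and 102 FPKM), a ratio to Buffer of 1.02 (0.971 to 1.08). Its partner Ndufv2 had 1250, 1237 and 1500 reads (91.4, 90.7 and 109 FPKM), 1.2-fold Buffer (1.11 to 1.29) and 1.21-fold Saline (1.12 to 1.30), the largest ratio among the core genes named here. The controls of Ndufv2 were close and STZ stood apart, whereas Ndufv1 overlapped within counting error. Ndufs1, the large subunit with several iron-sulfur clusters, had 2531, 2492 and 2750 reads (51.2, 50.5 and 55.5 FPKM), with a ratio of 1.08 (1.03 to 1.15). Ndufs3 had 1132, 990 and 1122 reads, so its low value was that of Saline (0.875-fold Buffer), and STZ matched Buffer (0.989). Ndufs7 had 1258, 1244 and 1341 reads and Ndufs8, a carrier of iron-sulfur clusters as well, had 764, 802 and 784, and neither left counting error against Buffer.

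**Figure D3:**
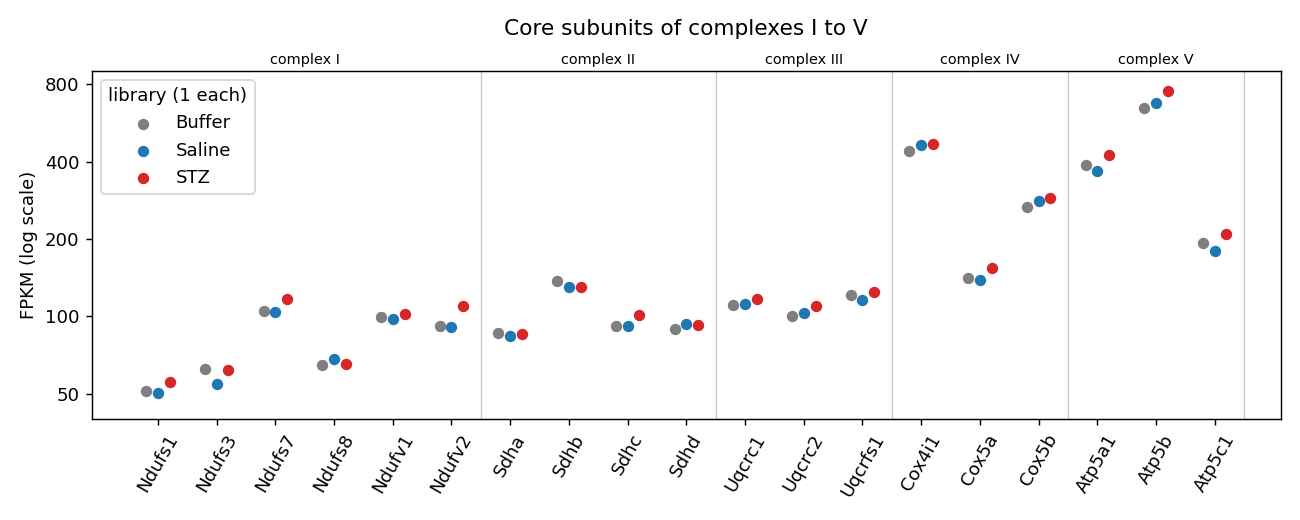
FPKM on a log scale (y axis) of core subunits (x axis) grouped by complex, with 1 point for each of the Buffer, Saline and STZ libraries. Atp5b is highest at 650 to 752 FPKM and Ndufs1 lowest at 50.5 to 55.5, and within a gene the 3 libraries lie close to each other compared with the distance between genes.

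Fractional rows of complex I included Ndufa1 and Ndufa12, both accessory subunits. Ndufa1 had 824.11, 825.56 and 844.48 reads, level in all 3 libraries. Ndufa12 had 1500.78, 1540.87 and 1692.79, and STZ was 1.13-fold Buffer (1.05 to 1.21) and 1.1-fold Saline (1.02 to 1.18).

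The 7 assembly factors, proteins that help build complex I without staying in it, were expressed below the subunits, at 8.01 to 25.3 FPKM. In 6 of them STZ was higher than both controls, where 44.9% of all genes with a mean of at least 10 reads were. Only in 1, Ndufaf5, did the interval lie above 1 against both controls. Ndufaf5, a factor that modifies an Ndufs7 residue, had 329, 348 and 454 reads (17.5, 18.6 and 24.1 FPKM). It was 1.38-fold Buffer (1.19 to 1.59) and 1.3-fold Saline (1.13 to 1.5) by count ratio, with the highest FPKM fold of any member against Buffer. Ndufaf6 went the other way with 177, 177 and 142 reads, a ratio of 0.801 (0.638 to 1) that just reached 1 in its interval. The controls were equal in Ndufaf6. Ndufaf2 had 80, 72 and 99 reads and was 1.37-fold Saline (1 to 1.88) but within counting error of Buffer. Ndufaf1 (341, 335 and 373 reads), Ndufaf3 (639, 588 and 672), Ndufaf4 (583, 556 and 641) and Ndufaf7 (576, 600 and 664) had ratios to Buffer of 1.05 to 1.15, of which Ndufaf7 alone left counting error.

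Complex II, succinate dehydrogenase, links the citrate cycle to the chain and is built from nuclear genes only. Sdha, the flavin subunit, had 3868, 3779 and 3846 reads (86, 84.1 and 85.3 FPKM), and Sdhb, the iron-sulfur subunit, had 2223, 2108 and 2121 (137, 130 and 130 FPKM). Sdhd, a membrane anchor, had 1943, 2024 and 2021. STZ lay within counting error of both controls in these 3 genes. The other anchor, Sdhc, had 1854, 1852 and 2041 reads (91.9, 92 and 101 FPKM), 1.1-fold both controls (1.03 to 1.17 in each).

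Complex III oxidizes ubiquinol. Uqcrfs1, the Rieske iron-sulfur protein, had 2276, 2170 and 2349 reads (121, 115 and 124 FPKM), and Uqcrc1, a core protein, had 3255, 3268 and 3428 (111, 111 and 116 FPKM). STZ was 1.03-fold and 1.05-fold Buffer in these. The other core protein, Uqcrc2, was a fractional row with 3517.43, 3626.92 and 3884.75 reads, 1.1-fold Buffer (1.05 to 1.15) and 1.07-fold Saline (1.02 to 1.12). The largest ratio was that of Uqcrb, a ubiquinone-binding subunit, with 1270, 1337 and 1524 reads (71.2, 75.2 and 85.3 FPKM), 1.2-fold Buffer (1.11 to 1.29) and 1.14-fold Saline (1.06 to 1.23). The small subunits Uqcrh (704, 662 and 687 reads), Uqcrq (1005, 1080 and 1013) and Uqcr11 (682, 715 and 698) had STZ values between the controls. Uqcr10, a fractional row at 159.12, 160.54 and 153.4 reads, was within counting error of both.

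Complex IV, cytochrome c oxidase, has nuclear subunits that occur as ubiquitous and tissue-restricted isoforms, and the isoforms of subunit 4 parted here. Cox4i1, the ubiquitous subunit 4, had 4517 reads in Buffer, 4727 in Saline and 4785 in STZ (442, 464 and 467 FPKM), with STZ 1.06-fold Buffer (1.02 to 1.1) and 1.01-fold Saline (0.97 to 1.05). Cox4i2, the isoform known from lung, hypoxia and perivascular cells, had 1635, 1519 and 1062 reads (143, 133 and 95 FPKM). STZ was 0.648-fold Buffer (0.6 to 0.701) and 0.697-fold Saline (0.644 to 0.755), the largest difference of any member with a mean of at least 10 reads. Saline was 0.93-fold Buffer, and STZ was well below both. Of the reads of both Cox4 genes, Cox4i2 held 26.6% in Buffer (25.5% to 27.7%), 24.3% in Saline (23.3% to 25.4%) and 18.2% in STZ (17.2% to 19.2%). The FPKM fold of Cox4i2 against Buffer, 0.667, lay just inside the threshold of 0.65.

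Ndufa4l2, a paralog of Ndufa4 known from hypoxia and pericytes, was also lower in STZ, with 479, 493 and 419 reads (30.5, 31.5 and 26.6 FPKM). STZ was 0.873-fold Buffer (0.764 to 0.998) and 0.848-fold Saline (0.743 to 0.968). Ndufa4 itself, first placed in complex I and later in complex IV, had 2797, 2846 and 3184 reads, 1.14-fold Buffer (1.08 to 1.2) and 1.12-fold Saline (1.06 to 1.17). The pair thus moved apart, and the share of Ndufa4l2 in their reads came to 14.6% and 14.8% in the controls Buffer and Saline and to 11.6% in STZ. Cox7a1, the isoform known from heart and skeletal muscle, was a fractional row at 48.93, 50.42 and 36.79 reads, within counting error. Cox6b2, known from testis, had 60, 55 and 55 reads, within counting error as well. STZ lay below both controls in all 4 restricted isoforms with a mean of at least 10 reads, where 35.5% of all genes with such a mean did. Cox6b2 had a ratio to Saline of 0.998, and only 2 of the 4, Cox4i2 and Ndufa4l2, left counting error.

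Beside these isoforms stand the vascular and muscle markers. All 8 vascular markers were detected, and all 8 were lower in STZ than in both controls, with a median log2 ratio of -1.38 against Buffer and -1.11 against Saline. Their summed level ran from 484 CPM in STZ to 714 in Saline and none was at 0, but Kdr alone, known from endothelial cells and also from other retinal cells, held most of it (13149, 14564 and 9972 reads). The endothelial markers Cldn5 (188, 154 and 37 reads) and Cdh5 (119, 114 and 28) were at much lower levels. The pericyte markers of that list were Pdgfrb (203, 172 and 74 reads), Rgs5 (54, 44 and 22) and Notch3 (531, 524 and 479). Of 17 muscle markers only 6 had a mean of at least 10 reads, and Myl1, Tnni2 and Mb were at 0 in 1 library or more. The part of vascular cells in the lower Cox4i2 and Ndufa4l2 was not tested. Cox7b2 (0, 1 and 0 reads) and Cox8b were too low for any ratio. The symbols Cox6a2, Cox6b1, Cox8c, Ndufaf8 and Atp5if1 were not among those of the 87 members.

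**Figure D4:**
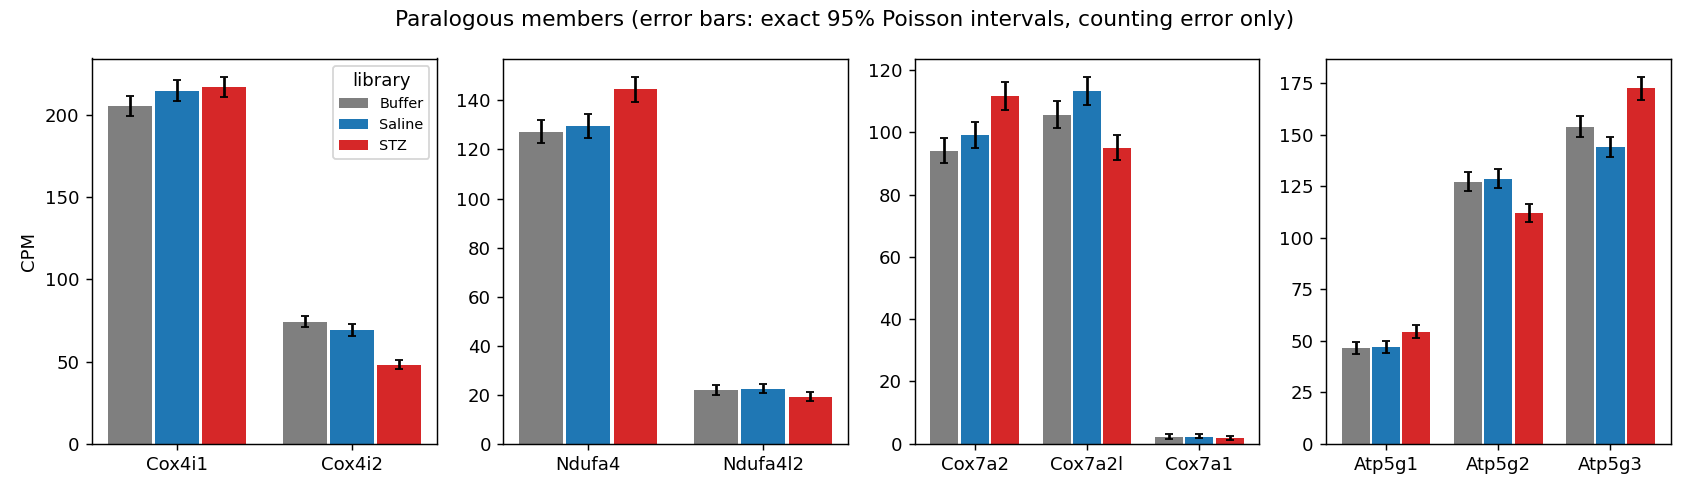
CPM (y axis) of paralogous members (x axis) in the Buffer, Saline and STZ libraries, with exact 95% Poisson intervals for counting error. In STZ, Cox4i2, Ndufa4l2, Cox7a2l and Atp5g2 are lower than both controls, while Ndufa4, Cox7a2, Atp5g1 and Atp5g3 are higher.

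The other subunits of complex IV were mostly higher in STZ. Cox5a, a matrix-side subunit, had 1144, 1123 and 1260 reads, 1.1-fold Buffer (1.01 to 1.19) and 1.12-fold Saline (1.03 to 1.21). Cox5b, the zinc-binding subunit, had 1488, 1564 and 1620 reads, 1.09-fold Buffer (1.01 to 1.17) but within counting error of Saline. Cox7b, a small membrane subunit, had 1005, 1101 and 1288 reads (210, 232 and 269 FPKM), 1.28-fold Buffer (1.18 to 1.39) and 1.17-fold Saline (1.08 to 1.27), the largest ratio of complex IV. Saline lay between Buffer and STZ in Cox7b, as it did in Cox8a (1856, 1974 and 2182 reads) and Cox6a1 (2218, 2305 and 2457). Cox7c had 2315, 2450 and 2563 reads and was within counting error of Saline. Among the broadly expressed subunits of complex IV, Cox6c lay below both controls, with 1832, 1686 and 1664 reads, 0.907-fold Buffer (0.848 to 0.969) and 0.985-fold Saline (0.919 to 1.05).

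The Cox7a paralogs parted as well. Cox7a2, the ubiquitous subunit and a fractional row, had 2068.65, 2176 and 2459.63 reads, 1.19-fold Buffer (1.12 to 1.26) and 1.13-fold Saline (1.06 to 1.2). Cox7a2l, which is no catalytic subunit but joins complexes III and IV into supercomplexes, had 2324, 2489 and 2094 reads (124, 133 and 112 FPKM). It was 0.9-fold Buffer (0.848 to 0.955) and 0.839-fold Saline (0.792 to 0.89). The share of Cox7a2l in the reads of Cox7a1, Cox7a2 and Cox7a2l came to 52.3% and 52.8% in Buffer and Saline and to 45.6% in STZ. Near-identical copies can split or lose reads where several genomic locations match, and the value of Cox7a2l stands on whole counts while that of Cox7a2 stands on fractional ones.

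Complex V held the most abundant member. Atp5b, the catalytic beta subunit, had 21826, 22764 and 25336 reads (650, 679 and 752 FPKM), 1.16-fold Buffer (1.14 to 1.18) and 1.11-fold Saline (1.09 to 1.13). Atp5a1, the alpha subunit, had 13795, 13033 and 15100 reads (388, 367 and 424 FPKM), 1.09-fold Buffer (1.07 to 1.12) and 1.16-fold Saline (1.13 to 1.18). Atp5c1, the gamma subunit of the central stalk, had 3624, 3375 and 3920 reads (193, 180 and 208 FPKM), 1.08-fold Buffer (1.03 to 1.13) and 1.16-fold Saline (1.11 to 1.21). In all 3 STZ was above both controls, while the controls differed in opposite directions, with Saline 1.04-fold Buffer in Atp5b, 0.945-fold in Atp5a1 and 0.932-fold in Atp5c1. The other parts of the central stalk differed from these. Atp5d, the delta subunit, had 1776, 1971 and 1862 reads with STZ between the controls. Atp5e, the epsilon subunit, had 1195, 1321 and 1183 reads. Its STZ value was within counting error of Buffer (0.988-fold, 0.911 to 1.07) and 0.893-fold Saline (0.825 to 0.967), and Saline itself was 1.11-fold Buffer (1.02 to 1.2).

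Subunit c, which forms the rotating ring, is made from 3 genes whose mature proteins are the same and whose import sequences differ. Atp5g1 had 1018, 1034 and 1196 reads (128, 129 and 150 FPKM), 1.17-fold Buffer (1.08 to 1.28). Atp5g3 had 3386, 3166 and 3802 reads (297, 279 and 333 FPKM), 1.12-fold Buffer (1.07 to 1.17) and 1.2-fold Saline (1.14 to 1.26). Atp5g2 had 2799, 2829 and 2466 reads (324, 329 and 285 FPKM), 0.88-fold Buffer (0.833 to 0.929) and 0.87-fold Saline (0.823 to 0.918), the smallest ratio of complex V. Atp5g2 thus ranked above Atp5g3 by FPKM in both controls and below it in STZ, and its share of their reads was 38.9%, 40.2% and 33%. The sum of the 3 genes was 7203, 7029 and 7464 reads.

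Of the remaining ATP synthase genes, Atp5i, the small e subunit, had an FPKM that within complex V was below that of Atp5b only, 481, 438 and 540, from only 719, 645 and 805 reads. The ratio of its reads to FPKM implied a length of only 67.7 bases, and 21 of the 84 members implied a length under 300 bases, so FPKM of the shortest genes leans on the length used. The STZ to Buffer median of these 21 genes (0.12) equalled that of the other 63 (0.12) at 2 decimals, and against Saline it was 0.07 and 0.14. Atp5o, the stalk protein known as OSCP, had 1543, 1672 and 1898 reads, 1.23-fold Buffer (1.15 to 1.31) and 1.13-fold Saline (1.06 to 1.21). Atp5h, Atp5j, Atp5j2 and Atp5l, subunits of the peripheral stalk and membrane part, had ratios to Buffer from 1.04 to 1.09. The lowest members were Atp5s (92, 95 and 127 reads, 2.45, 2.54 and 3.34 FPKM), with a ratio to Buffer of 1.38 and a wide interval of 1.04 to 1.82, and Atp5sl (609, 611 and 635 reads, 17 to 17.6 FPKM), which was within counting error. Neither is a subunit of the enzyme.

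Genes that work with the chain were described from further lists, each by its median log2 ratio in STZ against Buffer and against Saline. The 38 other assembly factors had medians of 0.10 and 0.07, and STZ lay above both controls in 24. The 17 citrate cycle and pyruvate dehydrogenase genes had 0.14 and 0.16, with 13 above both, among them Idh3a, a subunit of NAD-dependent isocitrate dehydrogenase (1787, 1658 and 2229 reads, 1.25-fold Buffer, 1.17 to 1.33). The 19 import and carrier genes had 0.09 and 0.09, with 15 above both, and Slc25a5, an ADP/ATP carrier, had the largest ratio among them (2672, 2851 and 3707 reads). The 75 mitochondrial ribosomal protein genes had 0.05 and 0.06, with 42 above both. The 21 genes of mitochondrial transcription and biogenesis had 0.00 and -0.02, with 5 above both and 7 below. Ppargc1a, a coactivator of such genes, had 301, 176 and 461 reads, so its controls differed from each other more than STZ did from Buffer. The 80 cytosolic ribosomal protein genes, which are short and abundant as well, had -0.10 and -0.13, with 61 below both controls and 5 above. Over all genes the medians were 0.04 and 0.02, with 44.9% of genes above both controls and 35.5% below.

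Cytochrome c, the carrier between complexes III and IV, is not covered by the name rule. Its gene Cycs had 1793.24, 1644.51 and 2549.37 reads in a fractional row (84.1, 77.3 and 119 FPKM). STZ was 1.42-fold Buffer (1.33 to 1.51) and 1.55-fold Saline (1.45 to 1.65), more than any member with a mean of at least 10 reads. Cyc1, the cytochrome c1 subunit of complex III, had 2121, 2127 and 2464 reads and an FPKM fold of 1.16 against Buffer and 1.15 against Saline. Of 26 symbols searched for the subunits encoded by mitochondrial DNA, 0 were among the 18425 genes, so these subunits were not analysed here.

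**Figure D5:**
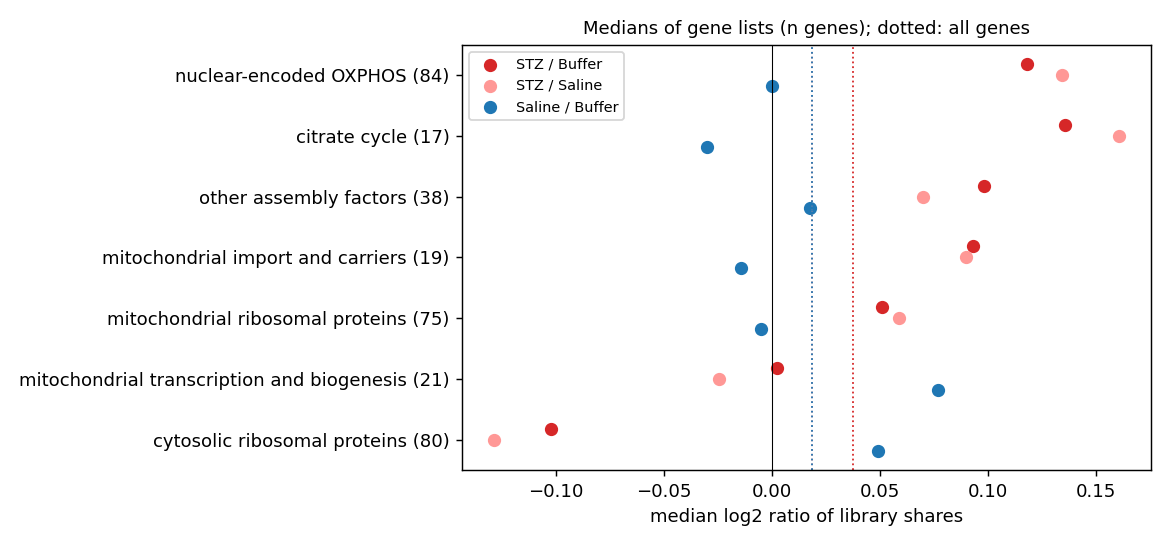
Median log2 ratio of library shares (x axis) of each gene list (y axis, number of genes with a mean of at least 10 reads) in the 3 comparisons, with dotted lines for the medians of all genes, which coincide at 0.02 for STZ to Saline and Saline to Buffer. The members and the citrate cycle lie to the right of the lines in both STZ comparisons, and the cytosolic ribosomal proteins lie to the left at -0.10 and -0.13.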

How the data were processed

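Total retinal RNA (TRIzol) was sequenced from TruSeq libraries on a HiSeq 2500. The authors checked reads with FastQC, trimmed them, mapped them with TopHat2 (up to 2 mismatches) to rn6, as named in the submitters' processing notes, discarded reads with several locations and computed FPKM with an R script. The authors deposited FPKM, TPM and an estimated count per gene and library. The deposited TPM entered no result. The deposited estimated counts are fractional for 12.9% to 13.2% of genes and were rounded here. The deposited tables of the series and of single libraries were identical. The strand and annotation used in counting were not given in the sources used here, so overlapping genes cannot be separated.

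The groups came from the treatment labels. With 1 library per group no model was fitted and no p-value was computed. Medians used genes with a mean of at least 10 reads, and calls by interval a mean of at least 500. The exact 95% intervals hold only the error of counting independent reads. They are too narrow even for that where reads are copies of 1 molecule. A member at 3 reads or fewer in a library got no ratio in comparisons that use it. Named genes were members past 1.54 or 0.65 (pseudocount 1), the highest and lowest FPKM and extreme ratios of each complex, core subunits, isoform sets, fractional rows, assembly factors, and list examples by level and ratio. Values of some single genes under this rule are not reported here. Other genes were named after their values were seen. The members, lists and motifs were chosen with earlier results of these data known. Gene IDs were matched to RefSeq tables on GRCr8 for names and promoters only. Calculations were tested on simulated data. Scalings were those of edgeR 4.0.16 and DESeq2 1.42.0 in R 4.3.3, and Python 3.11.15, numpy 2.4.6, pandas 2.3.3, scipy 1.17.1 and matplotlib 3.10.9 were used.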

Additional observations from a re-analysis of the deposited data

How the results depend on the processing

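No paired analysis was possible because each group has 1 library, and for the same reason leaving out a replicate was not an option. Of 210 alternative values, 152 stayed within the counting interval or within 1.5 times the count, and 58 did not. A value that stayed could still change sign. The STZ to Buffer median of complex II did so, at 0.0218 and, with DESeq2 size factors, -0.0164. Counts of members past the folds stayed 0 in STZ against Buffer. The 2 in each of the other comparisons became 3 with a pseudocount of 0.1, 1 with thresholds of 2 and 0.5 and 0 with a minimum mean of 10 or 100 reads or with CPM. Members below both controls numbered 4 of the 70 broad subunits in place of 10 of the 84 members, an alternative chosen after the data were seen. The other added alternatives left the counts by direction within 1.5 times, at 54 to 61 above both and 8 to 15 below, from differing numbers of members. With TMM, 56 of the 84 members lay above both and 15 below, where 40% and 40.4% of all genes did. With DESeq2 size factors 57 lay above and 15 below, where 40.2% of all genes lay on each side. The 29 members whose interval lay above both controls became 22 with TMM, 23 with DESeq2 size factors and 31 with a minimum mean of 10 reads, and the 3 below became 3, 3 and 4. At that lower minimum, 2882 of all 14885 genes had an interval above both and 2201 below. The shares of all genes by interval were not computed under the 2 scalings, so these counts have no background there.

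Under TMM scaling the median log2 ratio in STZ against Buffer was 0.0773 over all members and 0.0876, -0.0192, -0.004, 0.0792 and 0.0798 in complexes I to V. With DESeq2 size factors it was 0.0801 over all and 0.0903, -0.0164, -0.0012, 0.0819 and 0.0826 in complexes I to V. Against Saline TMM gave 0.1169 over all, 0.1313 in I and 0.1363 in V, and DESeq2 0.1165, 0.131 and 0.136. In Saline against Buffer TMM gave -0.0231 over all, -0.048 in I and -0.0034 in V, and DESeq2 -0.0201, -0.0449 and -0.0003, while whole-number rows gave -0.0126 over all. Ratios of sums under TMM in STZ against Buffer were 1.05 over all and 1.052, 0.9842, 1.036, 1.014 and 1.075 by complex. Against Saline they were 1.066 over all, 1.089 in I and 1.086 in V, and in Saline against Buffer 0.985, 0.9653 and 0.9897.

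With summed counts in place of the median, STZ against Buffer gave 0.0918 in III, 0.0611 in IV and 0.1456 in V, and STZ against Saline 0.1096 over all, 0.0155 in IV and 0.1372 in V. With Saline as the control the STZ to Buffer medians became 0.1345 over all, 0.1489 in I, 0.0473 in IV and 0.1539 in V, and with the mean of both controls 0.0832 in IV and 0.1493 in V. Subunits only gave 0.0886 in IV against Saline. Differences of a few percent in 1 library each cannot be told apart from differences between animals or eyes.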
